A study of Mus musculus with 6 samples.

Results

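The TGF-beta and activin branch of growth factor signalling was followed through 8 genes. They were taken by symbol from the deposited transcript table: the ligand genes Tgfb1, Tgfb2, Tgfb3 and Inhba, the latency gene Ltbp1, the matrix gene Tgfbi, and the Smad corepressor genes Skil and Tgif1. All 8 were in the table, out of 13659 gene symbols, and they held 26 of its 37478 transcripts. Every transcript was used, and the transcripts of a symbol were also summed to 1 value per gene.

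The samples were 6 RNA-seq libraries of MC3T3-E1 cells, subclone 4, a single cloned line of osteoblast-like cells derived from mouse calvaria. All cells were grown in αMEM with 10% serum, and 3 libraries came from cells given vehicle and 3 from cells given PTH(1-34), the active amino-terminal fragment of parathyroid hormone. On treatment time the labels disagree, with 30 min in the sample characteristics and 2 h in the protocol, and the time is therefore uncertain. Nor do they say whether replicate libraries were separate cultures. The p-values below thus reflect the spread among these libraries alone, and that spread may be technical. Levels are FPKM, sequenced fragments corrected for library size and divided by transcript length, so they can be compared between genes.

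TGF-beta ligands are secreted as inactive complexes in which a propeptide keeps the growth factor bound, and latent TGF-beta binding proteins tether these complexes to the matrix. Once released, the ligands bind paired serine/threonine kinase receptors, which phosphorylate Smad2 and Smad3, and activins use related receptors that reach the same Smads. SnoN, encoded by Skil, and TGIF1 bind these Smads at target genes and limit their activity. In bone, TGF-beta is stored in the matrix in latent form and is known to couple resorption to formation.

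The expression of 7 of the 8 genes rose with PTH and none fell. The test was limma on log2(FPKM + 0.5), with Benjamini-Hochberg adjustment over 11628 genes and a threshold of 0.05, and in it 10.8% of all tested genes were higher with PTH. Tgfb1 was the gene that did not pass. The 8 genes were chosen with earlier results of these data known, so the shares over all genes are background and not an independent test. In all 8 genes every PTH library lay above every vehicle library, an arrangement found in 13.1% of tested genes, while 47.5% had every PTH library below. The exact permutation test of the means, two-sided, gave p = 0.1 for each, the smallest that 3 against 3 libraries allow. The median log2 change of the 8 was 0.61, against -0.15 over all tested genes. When libraries were centred on their medians, every log2 change became 0.12 higher. With centred values all 8 genes rose, where 18.3% of tested genes did, and their median was 0.74 against -0.026. In bulk RNA a change in the number of cells of a type and a change in RNA per cell cannot be told apart.

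**Figure D1:**
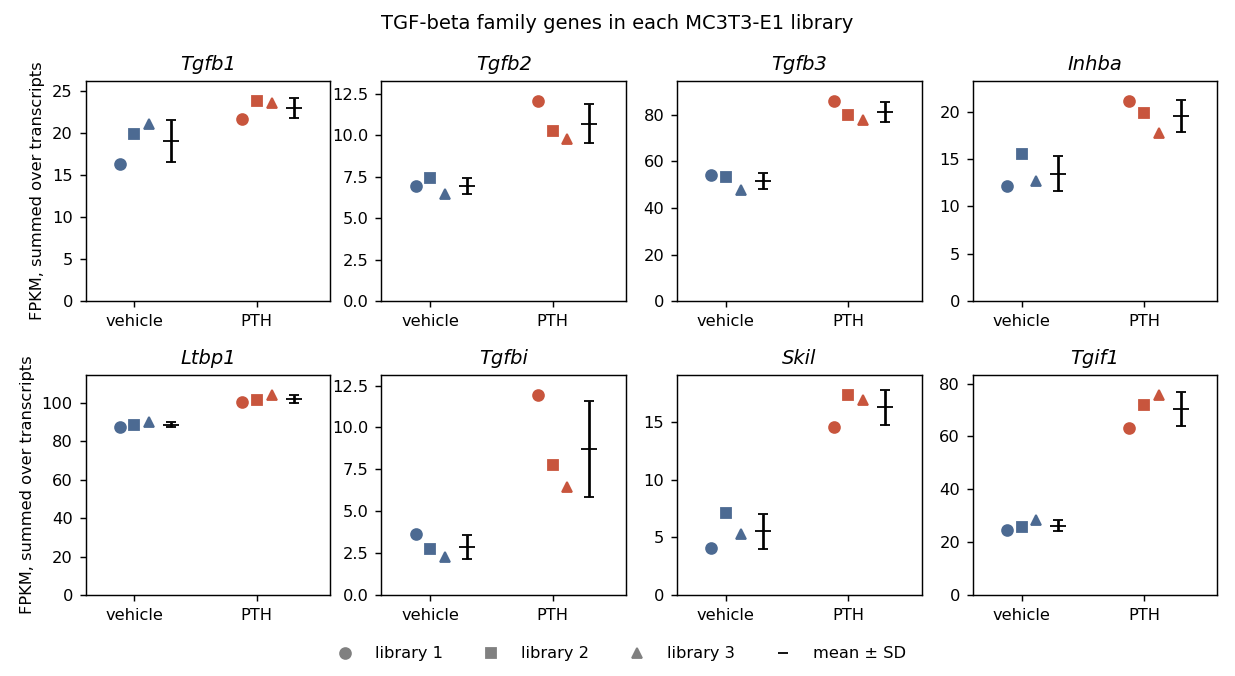
FPKM of each gene (vertical axes, each with its own scale from 0) in the 3 vehicle and the 3 PTH libraries, with symbols for library number and the mean ± SD beside the points. In every panel the 3 PTH points lie above the 3 vehicle points, by a wide margin in Skil, Tgif1 and Tgfbi and by a narrow one in Tgfb1, where the highest vehicle library is at 21.1 FPKM and the lowest PTH library at 21.6 FPKM.

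Among the ligands, Tgfb3 was the most abundant in both groups and its rise was the most precise. Tgfb3 (ENSMUSG00000021253, chr12:86056745-86079041, minus strand, in GENCODE M21 on GRCm38, as for all genes here) encodes the isoform needed for palate fusion in mice. It was at 54.2, 53.4 and 47.8 FPKM in vehicle libraries 1, 2 and 3 and at 85.9, 79.8 and 77.8 FPKM in PTH libraries 1, 2 and 3. The groups were far apart relative to their own spread, with means of 51.8 ± 3.45 and 81.2 ± 4.24 FPKM (SD, n = 3 each). This was a 1.57-fold rise, 0.64 on the log2 scale (SE 0.064, limma adjusted p = 0.000377). Its single listed transcript, Tgfb3-201, has 7 exons. The gene shares 5149 bases with Ttll5 on the other strand, which was at 5.66 ± 0.703 and 6.92 ± 0.946 FPKM (SD, n = 3 each) and did not pass the test (log2 change 0.27, limma adjusted p = 0.103). The kit marked the strand, and whether strand was used to assign reads is not given in the sources used here.

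Tgfb2 (ENSMUSG00000039239, chr1:186622792-186705989, minus strand), whose product binds its receptors only weakly without the co-receptor betaglycan, was the least abundant of the TGF-beta ligands. The vehicle libraries were at 6.97, 7.45 and 6.49 FPKM and the PTH libraries at 12.1, 10.3 and 9.80 FPKM. The PTH libraries were more scattered but did not reach the vehicle range. With means of 6.97 ± 0.484 and 10.7 ± 1.20 FPKM (SD, n = 3 each), Tgfb2 rose by 0.58 on the log2 scale (SE 0.089, limma adjusted p = 0.00204).

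Tgfb1 (ENSMUSG00000002603, chr7:25687002-25705077, plus strand), the form most abundant in bone matrix, had the smallest rise of the TGF-beta ligands. Its vehicle libraries were at 16.3, 19.9 and 21.1 FPKM and its PTH libraries at 21.6, 23.8 and 23.5 FPKM. Vehicle library 1 was low, and the highest vehicle library lay just under the lowest PTH library. The means were 19.1 ± 2.49 and 23.0 ± 1.16 FPKM (SD, n = 3 each), with a log2 difference of 0.27 (SE 0.098) that did not pass (limma adjusted p = 0.0568). The difference passed with the library number as a block (limma adjusted p = 0.00739), with centred libraries (0.39, limma adjusted p = 0.0189) and without vehicle library 3 (0.34, limma adjusted p = 0.0376). It did not pass in 15 of the 22 other settings run, among them TPM (limma adjusted p = 0.196) and leaving out vehicle library 1, which lowered it to 0.16.

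The summed FPKM of the 3 TGF-beta ligand genes went from 77.9 ± 2.70 in vehicle to 114.8 ± 4.36 with PTH (SD, n = 3 each), a 1.47-fold difference. Tgfb3 made up 70.0%, 66.1% and 63.5% of this sum in the vehicle libraries and 71.8%, 70.1% and 70.0% in the PTH libraries. Tgfb1 made up 21.03%, 24.6% and 27.9% in vehicle and 18.1%, 20.9% and 21.2% with PTH, and Tgfb2 between 8.60% and 10.1% in all 6. The share of Tgfb3 in vehicle library 1 was about that of the lowest PTH library, and in both groups the share of Tgfb1 was lowest in library 1.

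Inhba (ENSMUSG00000041324, chr13:16011851-16031621, plus strand) encodes the beta A subunit, which forms activin A as a homodimer. It was at 12.2, 15.5 and 12.6 FPKM in vehicle and at 21.1, 19.8 and 17.8 FPKM with PTH. Vehicle library 2 stood above the other vehicle libraries and below all PTH libraries. The mean was 13.4 ± 1.83 FPKM in vehicle and 19.6 ± 1.68 FPKM with PTH (SD, n = 3 each), a 1.45-fold rise of 0.53 on the log2 scale (SE 0.11, limma adjusted p = 0.00585). The gene shares 11573 bases with the pseudogene B230303A05Rik on the other strand, which was not analysed here. Nearly all of the Inhba signal was assigned to the shorter transcript Inhba-202, at 12.9 ± 1.58 FPKM in vehicle and 18.9 ± 1.66 FPKM with PTH (SD, n = 3 each; log2 change 0.54, limma adjusted p = 0.0122 over transcripts). Inhba-202 has 0 exonic bases of its own, so its FPKM rests on how shared reads were divided. Inhba-201, with 4861 exonic bases of its own, was at 0.568 ± 0.262 and 0.634 ± 0.0704 FPKM (SD, n = 3 each) and did not pass (log2 change 0.11, limma adjusted p = 0.725).

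Ltbp1 (ENSMUSG00000001870, chr17:75005568-75392512, plus strand) encodes a latent TGF-beta binding protein, which is linked to the propeptide and carries the latent complex to the matrix. It had the highest level of the 8 genes and a small change. The vehicle libraries were at 87.4, 88.2 and 89.8 FPKM and the PTH libraries at 100.3, 101.5 and 104.0 FPKM, so each group was tight and the gap between them was wider than either. The mean was 88.5 ± 1.23 FPKM in vehicle and 101.9 ± 1.90 FPKM with PTH (SD, n = 3 each), a 1.15-fold rise of 0.20 on the log2 scale (SE 0.036, limma adjusted p = 0.00373). The call was lost with values rescaled to TPM (0.30, limma adjusted p = 0.349), with only the highest transcript (0.13, 0.110) and with only protein-coding transcripts (0.10, 0.0745).

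Ltbp1 is annotated with a pair of start sites for its coding transcripts, which lie 173242 bases apart. The distal one gives the long coding transcript Ltbp1-201 and the proximal one the short coding transcripts Ltbp1-202 and Ltbp1-203. The 250 bases before each RefSeq start (GRCm38.p6, chr17:75005279-75005528 and chr17:75178531-75178780, both on the plus strand) are shown. The most abundant transcripts start at the short one. The transcript that changed most, Ltbp1-207, starts 726 bases downstream of the long form Ltbp1-201, and neither window reaches its start. Whether a sequence shown has a part in any change was not tested. Capitals mark a cyclic AMP response element, TGACGTCA, the sequence bound by CREB.
Ltbp1 long start: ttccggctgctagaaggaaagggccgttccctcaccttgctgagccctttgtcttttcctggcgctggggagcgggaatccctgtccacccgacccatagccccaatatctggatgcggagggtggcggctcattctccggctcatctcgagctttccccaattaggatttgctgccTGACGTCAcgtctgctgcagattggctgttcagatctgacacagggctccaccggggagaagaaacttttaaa
Ltbp1 short start: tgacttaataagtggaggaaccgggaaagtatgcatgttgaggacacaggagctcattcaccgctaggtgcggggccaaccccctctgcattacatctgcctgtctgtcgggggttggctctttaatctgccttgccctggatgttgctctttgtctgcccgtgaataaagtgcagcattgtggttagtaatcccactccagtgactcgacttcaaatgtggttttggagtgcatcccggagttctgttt
The element begins 73 bases before the long start. Searched on both strands, it occurs in 1.55% of the 32851 RefSeq windows of this length, and the short start's window holds none.

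The non-coding transcripts of Ltbp1 changed more than its coding transcripts in relative terms. Ltbp1-207, a processed transcript of 519 bases and 3 exons that starts 726 bases downstream of Ltbp1-201, was at 1.29, 1.06 and 0.589 FPKM in vehicle and at 8.81, 5.76 and 6.94 FPKM with PTH. All 3 PTH libraries were several times above the vehicle libraries, and 380 of the transcript's bases belong to no other listed Ltbp1 transcript. It rose by 2.39 on the log2 scale (SE 0.23, limma adjusted p = 0.00103), in a test of 28055 transcripts in which 7.03% were higher. The retained-intron transcript Ltbp1-206 was at 0.787 ± 0.113 FPKM in vehicle and 1.71 ± 0.147 FPKM with PTH (SD, n = 3 each), and it rose by 0.78 on the log2 scale (limma adjusted p = 0.00689).

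The coding transcripts of Ltbp1 did not pass one by one. The long form Ltbp1-201 was at 11.6 ± 1.64 FPKM in vehicle and 12.6 ± 0.516 FPKM with PTH (SD, n = 3 each; log2 change 0.11, limma adjusted p = 0.478). The short forms Ltbp1-202 and Ltbp1-203 differed by 0.061 (limma adjusted p = 0.444) and 0.13 (limma adjusted p = 0.156) on the log2 scale. Both short forms passed with centred libraries (0.20 and 0.27, limma adjusted p = 0.0436 and 0.0248). Ltbp1-202 has 0 exonic bases of its own and Ltbp1-203 has 101 of 5140, so their separate values rest on how shared reads were divided. Summed, the coding transcripts were at 86.7 ± 1.69 and 93.1 ± 2.80 FPKM and the non-coding ones at 1.77 ± 0.465 and 8.87 ± 1.51 FPKM (SD, n = 3 each), so the non-coding share of Ltbp1 was 2.00% in vehicle and 8.71% with PTH. Unequal change among the transcripts was tested with limma's diffSplice, which passed (adjusted p = 1.0e-08; 11.4% of 5991 genes did). A limma test of each transcript's log2 ratio to the others, chosen after seeing the data, gave 2.27 for Ltbp1-207 (adjusted p = 0.0138; 0.681% of transcripts were higher). The ratio no longer passed with the library number as a block (adjusted p = 0.0626), without vehicle library 2 (2.33, 0.0548), without PTH library 1 (2.10, 0.0541) or without PTH library 3 (2.30, 0.0627).

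**Figure D2:**
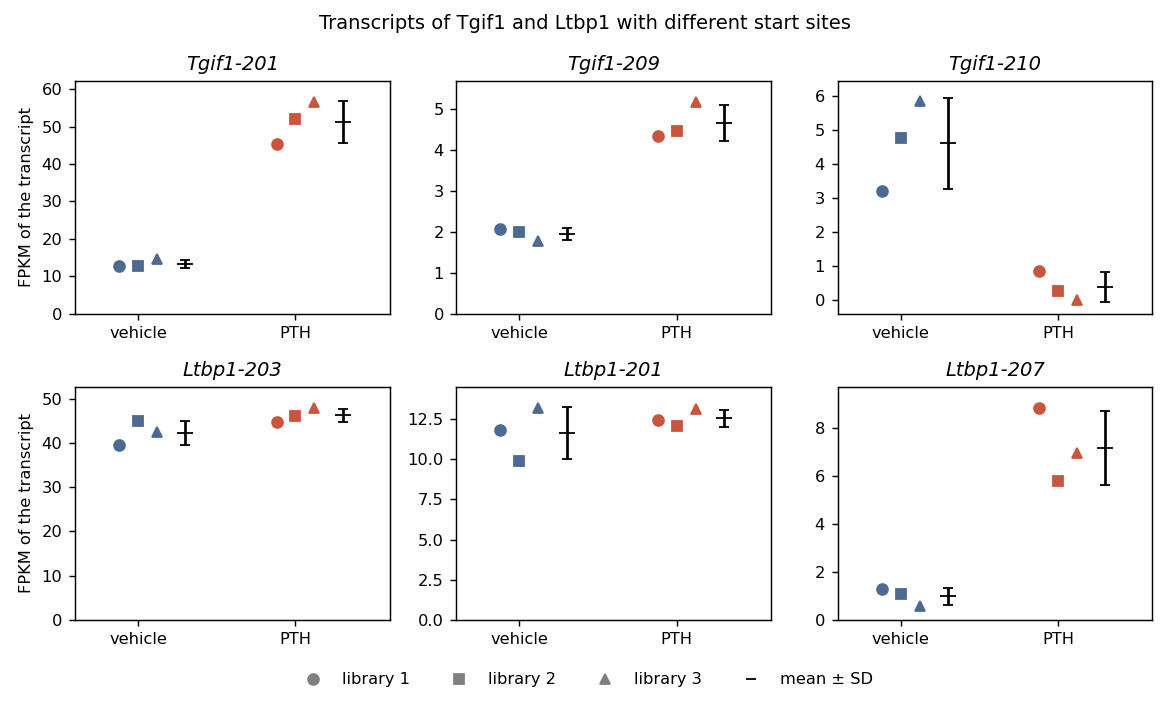
FPKM of 3 transcripts each of Tgif1 and Ltbp1 (vertical axes, each panel with its own scale) in the vehicle and PTH libraries, with symbols for library number and the mean ± SD beside the points. Tgif1-201, Tgif1-209 and Ltbp1-207 are higher in all PTH libraries and Tgif1-210 is lower in all of them, while the coding transcripts Ltbp1-203 and Ltbp1-201 overlap between the groups.

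Tgfbi (ENSMUSG00000035493, chr13:56609523-56639562, plus strand) encodes a secreted matrix protein first found as a gene induced by TGF-beta. It was the least abundant of the 8 genes in vehicle. Its vehicle libraries were at 3.64, 2.73 and 2.25 FPKM and its PTH libraries at 11.9, 7.78 and 6.43 FPKM. Library 1 was the highest in both groups. The mean was 2.88 ± 0.705 FPKM in vehicle and 8.72 ± 2.88 FPKM with PTH (SD, n = 3 each), a 3.03-fold rise of 1.43 on the log2 scale (SE 0.24, limma adjusted p = 0.00286). The SE was the largest of the 8 genes. All of the signal was in 1 listed transcript of 17 exons.

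Skil (ENSMUSG00000027660, chr3:31095058-31122577, plus strand) encodes SnoN, which represses Smad target genes and is itself a known TGF-beta target. Its change was among the 3 largest of the 8, with those of Tgfbi and Tgif1. The vehicle libraries were at 4.13, 7.12 and 5.31 FPKM and the PTH libraries at 14.6, 17.4 and 16.9 FPKM. Vehicle library 2, the highest of its group, was still below every PTH library. The mean was 5.52 ± 1.51 FPKM in vehicle and 16.3 ± 1.51 FPKM with PTH (SD, n = 3 each), a 2.95-fold rise of 1.51 on the log2 scale (SE 0.18, limma adjusted p = 0.000699). Of its 4 transcripts 3 rose, led by Skil-204, which went from 3.54 ± 1.43 to 11.0 ± 1.16 FPKM (SD, n = 3 each; log2 change 1.56, limma adjusted p = 0.00563). Skil-202 rose by 1.22 and Skil-201 by 0.85 on the log2 scale (limma adjusted p = 0.00581 and 0.0107). Skil-205 differed by 0.92 and did not pass (limma adjusted p = 0.0787). The transcripts share nearly all of their exons, and unequal change among them did not pass (diffSplice adjusted p = 0.455).

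Tgif1 (ENSMUSG00000047407, chr17:70844205-70853546, minus strand) encodes a homeodomain corepressor that competes with coactivators for Smad2 and also represses retinoid-responsive genes. The vehicle libraries were at 24.7, 25.8 and 28.5 FPKM and the PTH libraries at 63.3, 72.0 and 75.7 FPKM. The groups were separated by more than the whole vehicle level. The mean was 26.3 ± 1.95 FPKM in vehicle and 70.3 ± 6.37 FPKM with PTH (SD, n = 3 each), a 2.67-fold rise of 1.40 on the log2 scale (SE 0.082, limma adjusted p = 4.9e-05).

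The 9 listed transcripts of Tgif1 did not move together. Tgif1-201 was at 12.7, 12.8 and 14.5 FPKM in vehicle and at 45.3, 52.1 and 56.5 FPKM with PTH, and it rose by 1.90 on the log2 scale (SE 0.094, limma adjusted p = 8.5e-05). Tgif1-210, which starts 1417 bases downstream, was at 3.20, 4.77 and 5.84 FPKM in vehicle and at 0.873, 0.288 and 0.0200 FPKM with PTH. It was the only one of the 8 genes' 25 tested transcripts that fell (log2 change -2.59, SE 0.38, limma adjusted p = 0.00482), where 18.7% of all tested transcripts were lower. As a share of Tgif1, Tgif1-201 went from 50.8 ± 0.885% to 72.9 ± 1.58% and Tgif1-210 from 17.3 ± 3.91% to 0.602 ± 0.698% (SD, n = 3 each). Tgif1-210 has 0 exonic bases that are not also in other listed Tgif1 transcripts, so its FPKM rests on how Cufflinks divided shared reads. Of the 1631 exonic bases of Tgif1-201 only 76 are its own, so its FPKM and share rest largely on that division too.

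The sequences upstream of these starts are shown because the transcripts moved in opposite directions. Tgif1-203, which rose, starts close to Tgif1-210, at position 70849807 of chromosome 17 against 70849790. By these estimates the fall of Tgif1-210 was not shared by Tgif1-203. Of the 772 exonic bases of Tgif1-203 only 151 are its own, so its FPKM too rests largely on the division of shared reads. Both are from RefSeq (GRCm38.p6, minus strand), limited to the bases that lie in no annotated exon: 99 bases at chr17:70851211-70851309 for Tgif1-201 and 226 bases at chr17:70849815-70850040 for Tgif1-210.
Tgif1-201 start: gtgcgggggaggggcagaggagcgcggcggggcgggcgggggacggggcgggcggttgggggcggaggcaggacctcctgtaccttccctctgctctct
Tgif1-210 start: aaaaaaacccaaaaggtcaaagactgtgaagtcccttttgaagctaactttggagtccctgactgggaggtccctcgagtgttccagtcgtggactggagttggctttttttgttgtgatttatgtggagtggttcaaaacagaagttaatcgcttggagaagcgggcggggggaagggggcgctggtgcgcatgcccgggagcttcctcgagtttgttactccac
The cyclic AMP response element, its half-site TGACG and the AP-1 site TGANTCA were searched on both strands and had no match in either sequence, so neither has capitals.

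Of the other Tgif1 transcripts, Tgif1-209, with 425 exonic bases of its own, was at 2.07, 2.00 and 1.77 FPKM in vehicle and at 4.35, 4.48 and 5.18 FPKM with PTH. It rose by 1.08 on the log2 scale (limma adjusted p = 0.00104). Tgif1-203 rose by 0.99 (limma adjusted p = 0.00142), Tgif1-207 by 1.03 (0.00924) and Tgif1-202 by 1.14 (0.0196). The call of Tgif1-202 was lost when any of 4 libraries was left out: vehicle 1 (1.14, limma adjusted p = 0.0550), vehicle 3 (0.97, 0.0599), PTH 1 (1.13, 0.0560) or PTH 2 (0.95, 0.0547). Tgif1-205, Tgif1-206 and Tgif1-208 differed by 0.15, 0.31 and 0.71 and did not pass (limma adjusted p = 0.660, 0.341 and 0.232).

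Unequal change among the Tgif1 transcripts passed (diffSplice adjusted p = 1.4e-10). Against the other Tgif1 transcripts, the log2 ratio of Tgif1-201 was higher by 1.36 (limma adjusted p = 0.00652), and that of Tgif1-210 was lower, at -4.26 (0.00970), where 1.00% of transcripts were lower. Both ratios lost their calls with the library number as a block (limma adjusted p = 0.0667 and 0.0876), and that of Tgif1-210 also without vehicle library 3 (-4.11, 0.0504) and with an added constant of 0.1 (-5.36, 0.0517). The ratio of Tgif1-205 was lower by the same test (-1.28, limma adjusted p = 0.0400) and passed in none of the 6 fits that left out 1 library (adjusted p from 0.0698 to 0.136).

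Over the 8 genes, 14 of the 25 tested transcripts rose, 1 fell and 10 did not pass, where 7.03% of all 28055 tested transcripts were higher and 18.7% lower. The remaining tested ones were those of Tgfb1, where Tgfb1-201 went from 17.6 ± 2.27 to 20.9 ± 1.33 FPKM (SD, n = 3 each; log2 change 0.24, limma adjusted p = 0.134). Tgfb1-201 passed with the library number as a block (limma adjusted p = 0.0339) and with centred libraries (0.38, 0.0416). Tgfb1-202, annotated as subject to nonsense-mediated decay, was at 1.20 ± 0.279 and 1.87 ± 0.457 FPKM (SD, n = 3 each; log2 change 0.47, limma adjusted p = 0.121). The retained-intron transcript Tgfb1-203 was under the filter, with a mean of 0.246 FPKM over the 6 libraries. The authors' deposited table gives 11 of the 26 transcripts a q-value under 0.05, where 7.62% of all its transcripts do, and these belong to every one of the 8 genes but Ltbp1. The authors' deposited table gives Tgfb1-201 a q-value of 0.00569, Tgif1-210 one of 0.780 and Ltbp1-207 one of 0.982, and it names its groups only q1 and q2.

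**Figure D3:**
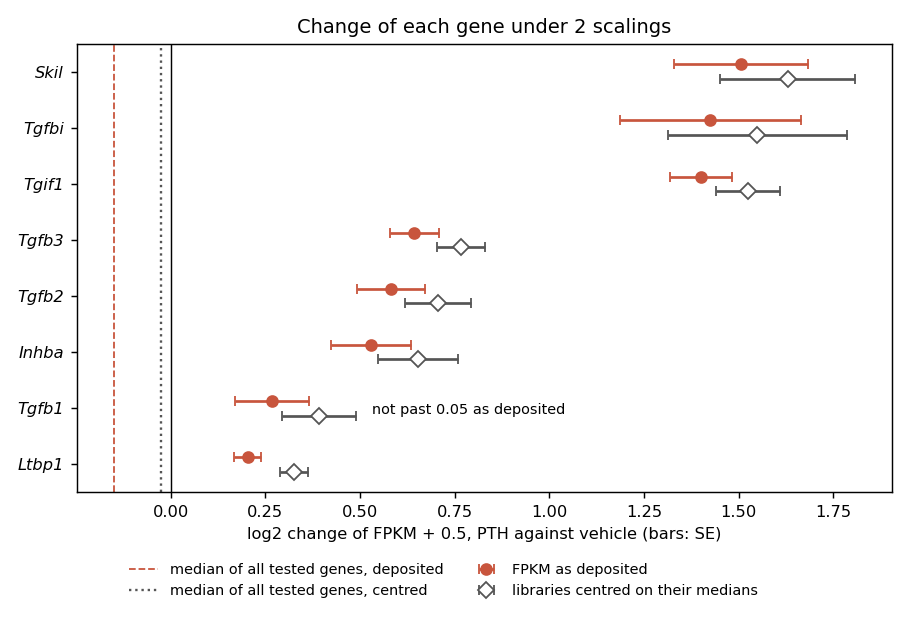
Log2 change of FPKM + 0.5 with PTH for each of the 8 genes (horizontal axis, bars are SE), as deposited (filled circles) and with libraries centred on their medians (open diamonds). All 8 genes lie right of both medians over all tested genes (dashed and dotted lines at -0.15 and -0.026), with Skil, Tgfbi and Tgif1 at 1.40 or more and Ltbp1 lowest at 0.20 as deposited.

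The order of the levels was similar in both groups. In vehicle it ran from Ltbp1 through Tgfb3, Tgif1, Tgfb1, Inhba, Tgfb2 and Skil to Tgfbi, and only Tgfb2 and Skil overlapped among neighbours. With PTH, Skil stood above Tgfb2, and among neighbours only Tgfb2 and Tgfbi overlapped. Tgif1 stayed in the third place but moved from 26.3 FPKM, nearer to Tgfb1 than to Tgfb3, to 70.3 FPKM, nearer to Tgfb3.

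Promoter windows of 250 bases were found for 6 of the 8 genes, 11 windows in all. Besides the full element at the long start of Ltbp1, the only motif match was the element's half-site TGACG, which occurs in 17.8% of all windows on either strand. It lies 72 bases before the Tgfb2 start, where it reads CGTCA on the strand shown (RefSeq, GRCm38.p6, chr1:186705990-186706239, minus strand) and is in capitals.
Tgfb2 start: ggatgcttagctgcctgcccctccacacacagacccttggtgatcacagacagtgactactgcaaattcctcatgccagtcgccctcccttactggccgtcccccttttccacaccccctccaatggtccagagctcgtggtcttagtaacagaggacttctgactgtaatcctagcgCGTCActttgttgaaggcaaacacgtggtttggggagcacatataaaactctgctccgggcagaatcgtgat
The AP-1 site TGANTCA, present in 6.75% of all windows, was in none of the 11. The half-sites counted at the long Ltbp1 start both lie within its full element.

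The genes whose pattern over the 6 libraries was most like that of each member were found by the root mean square (RMS) difference of log2 values centred on each gene's mean. For Tgif1 they were Slc35d1 and Pqlc1 (RMS difference 0.0486 and 0.0600) and for Tgfb3 Rcan1 and Btg3 (0.0394 and 0.0538). For Tgfb2 they were Fxyd5 and the pseudogene Tpt1-ps3 (0.0513 and 0.0595), for Tgfb1 Cmip and Il1rl2 (0.0545 and 0.0545) and for Ltbp1 Agap3 and Nemf (0.0160 and 0.0175). Inhba was nearest to Met (0.0724), and Skil to Fam131a and Chd7 (0.0709 and 0.0998). Tgfbi had the least close neighbours, Medag and Il1r1 (0.145 and 0.179).

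Other genes of the pathway were read from a list of 69 in 6 roles, of which 59 were in the table and 52 were tested. There 14 rose and 10 fell, and 28 did not pass, against 10.8% higher and 41.0% lower over all tested genes. The same shares are the background for the count in each role below. With centred libraries 18 rose and 7 fell, against 18.3% and 24.0%. The median log2 change was 0.0016, and 0.13 with centred libraries.

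Of 6 tested receptor genes, 1 rose and 1 fell, and with centred libraries 3 rose and 1 fell. With no filter on low values 1 rose and 2 fell. Without PTH library 3, and with the library number as a block, there were 2 rises. Tgfbr2, the receptor that binds TGF-beta first, was at 37.9, 49.0 and 40.3 FPKM in vehicle and at 67.4, 79.0 and 73.5 FPKM with PTH, and it rose by 0.79 on the log2 scale (SE 0.11, limma adjusted p = 0.00115). Acvr1, a type I receptor used mainly by BMPs, fell by 0.36 (limma adjusted p = 0.00277), from 37.0 ± 2.30 to 28.7 ± 1.27 FPKM (SD, n = 3 each). Its call was lost with TPM (-0.27, limma adjusted p = 0.406).

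Of 4 Smads, 2 rose and 1 fell, and without vehicle library 1, and with the library number as a block, there were 2 falls. Smad3 was at 24.0, 33.6 and 28.6 FPKM in vehicle and at 91.1, 97.8 and 98.8 FPKM with PTH, and it rose by 1.73 on the log2 scale (SE 0.12, limma adjusted p = 8.2e-05). Smad2, which is phosphorylated by the same receptors, went the other way, from 22.6 ± 0.741 to 19.0 ± 0.642 FPKM (SD, n = 3 each; log2 change -0.25, limma adjusted p = 0.00494). The call of Smad2 was lost with centred libraries (-0.12, limma adjusted p = 0.0838), without the libraries numbered 2 (-0.24, 0.0510), with TPM (-0.16, 0.714) and with cyclic loess (-0.11, 0.122). Smad7, the inhibitory Smad that TGF-beta induces, rose by 0.93 on the log2 scale, with means of 2.85 ± 0.290 and 5.92 ± 0.937 FPKM (SD, n = 3 each; limma adjusted p = 0.000963).

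Genes of latency and activation other than Ltbp1 gave 2 rises and no fall among 12 tested, and 3 rises with centred libraries. Without the filter on low values there was 1 fall. With the library number as a block 4 rose, and 6 with block and centring. Lrrc32, which encodes GARP, a cell surface protein that holds latent TGF-beta, was at 0.587, 1.20 and 0.547 FPKM in vehicle and at 5.65, 8.47 and 6.13 FPKM with PTH. It was low in every vehicle library and rose by 2.52 on the log2 scale (SE 0.22, limma adjusted p = 0.000247). Furin, the protease that cleaves the TGF-beta propeptide, rose by 0.30 (limma adjusted p = 0.0138), and the call was lost without the libraries numbered 1 (0.22, 0.0848) and with TPM (0.39, 0.148). Other activin-class ligands and antagonists gave 1 fall with no filter on low values and 1 with TPM. None of their 4 genes in the main test passed. With centred libraries 1 rose, 1 without vehicle library 3, 1 with the library number as a block and 3 with block and centring. The most abundant of them, Dcn, which encodes the TGF-beta-binding proteoglycan decorin, was at 137.8 ± 35.3 and 137.4 ± 33.2 FPKM (SD, n = 3 each; limma adjusted p = 0.999), with library 1 the highest in both groups.

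Among 11 tested corepressors and negative regulators other than Skil and Tgif1, 2 rose and 3 fell. With no filter on low values 4 fell. Smurf2, a ubiquitin ligase for Smads and receptors, rose from 35.3 ± 1.58 to 94.6 ± 13.1 FPKM and Pmepa1, which sequesters Smad2 and Smad3, from 18.1 ± 1.39 to 43.3 ± 5.05 FPKM (SD, n = 3 each). Their log2 changes were 1.40 and 1.23 (limma adjusted p = 0.000104 and 0.000143). Ski, the relative of Skil, fell by 0.35 (limma adjusted p = 0.00148) and Smurf1, the relative of Smurf2, by 0.42 (0.000996), both named after their values were seen. Sin3a, a scaffold of histone deacetylase complexes, fell by 0.61 (limma adjusted p = 0.0174), and its call was lost without vehicle library 3 (-0.54, 0.0631), without the libraries numbered 2 (-0.70, 0.0526), with quantile normalisation (-0.44, 0.0585) and with cyclic loess (-0.38, 0.106). With TPM only 1 gene of this role fell. Sin3a still passed there, so the calls of Ski and Smurf1 were lost.

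Of 15 tested genes known as TGF-beta targets, 7 rose and 5 fell, where 10.8% of all tested genes were higher and 41.0% lower. The falls were thus no more frequent than over all tested genes. Junb, an AP-1 subunit, rose from 11.6 ± 3.25 to 159.5 ± 9.15 FPKM, Tsc22d1, a leucine zipper gene, from 72.5 ± 4.59 to 633.3 ± 53.5 FPKM and Snai1, a repressor of epithelial genes, from 23.8 ± 4.31 to 169.8 ± 10.4 FPKM (SD, n = 3 each). Their log2 changes were 3.76, 3.12 and 2.82, with limma adjusted p of 3.0e-05, 1.3e-06 and 1.4e-05. The 5 falls, whose genes were picked out once their values were known, were in Ctgf (-2.44), Snai2 (-1.72), Tgfb1i1 (-1.15), Cyr61 (-0.72) and Lox (-0.18). With centred libraries 3 fell, and the calls of Cyr61 (-0.60, limma adjusted p = 0.0675) and Lox (-0.059, 0.459) were lost. Leaving out libraries gave between 3 and 7 falls: there were 3 without vehicle library 2, without PTH library 2 and without PTH library 3.

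**Figure D4:**
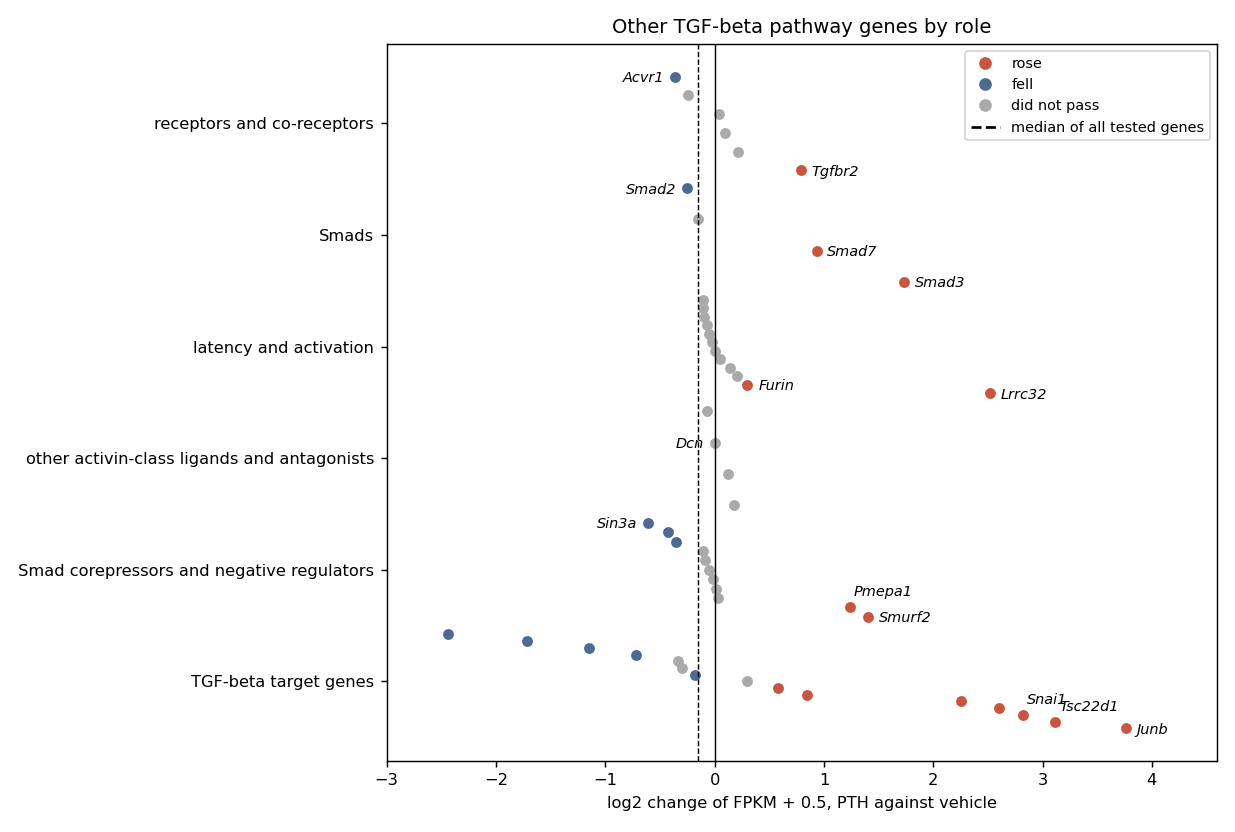
Log2 change of FPKM + 0.5 with PTH (horizontal axis) for the 52 tested genes of the pathway list by role, with genes that rose in red, those that fell in blue and those that did not pass in grey; vertical lines mark 0 and the median of all tested genes. Changed genes lie on both sides of 0 in receptors, Smads, corepressors and targets, from Ctgf at -2.44 to Junb at 3.76.

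The label of the cells was read against marker genes. All 10 osteoblast markers were in the table, 9 of them with a mean of at least 1 FPKM, and their sum ranged from 886 to 967 FPKM in vehicle and from 899 to 994 FPKM with PTH. Most of that sum was Spp1, with means of 573 and 606 FPKM, while other markers differed in opposite directions. The mean of Sp7 was 42.7 FPKM in vehicle and 6.79 FPKM with PTH, that of Pth1r 43.3 and 24.6 FPKM, that of Bglap 5.04 and 26.9 FPKM and that of Bglap2 4.99 and 25.1 FPKM. None of the 4 endothelial and 4 skeletal muscle markers was in the table, and the 1 adipocyte marker in it stayed under 1 FPKM. Of 7 macrophage or osteoclast markers 3 were in the table, summing to 127 to 149 FPKM in vehicle and 127 to 150.0 FPKM with PTH, nearly all of it Ctsk, with Csf1r and Cd68 under 1 FPKM. Of 4 chondrocyte markers 2 were in the table, Sox9 and Col2a1, and their sum went from between 9.77 and 13.7 FPKM in vehicle to between 25.1 and 31.0 FPKM with PTH. The means of Ibsp and Dlx5 were also lower with PTH. The chondrocyte sum, Bglap and Bglap2 were thus higher with PTH, as the 8 genes were, while Sp7 and Pth1r were lower. The part of these markers in the changes of the 8 genes was not tested. FPKM totals ran from 618221 to 853916, and the short RNA gene Mir5105 took 19.0% to 39.6% of them.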

How the data were processed

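Per the labels' protocols, the authors isolated RNA with TRIzol, prepared stranded mRNA libraries, and used Cufflinks to turn paired-end reads into transcript abundances in FPKM. The deposited FPKM values cover 37478 transcripts in 6 libraries. The submitters' processing notes name the build mm10. Which aligner, versions and annotation were used is not given in the sources used here. Each transcript also has the authors' deposited log2 fold change, p-value and q-value, per the file headers. FPKM is not a count and the depth is unknown, so no counting interval or floor is given.

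FPKM values were summed per symbol and tested with limma 3.58.1 in R 4.3.3 (lmFit, eBayes with trend) on log2(FPKM + 0.5). The test was two-sided and its p-values were adjusted (Benjamini-Hochberg) over 11628 genes with a mean of at least 1 FPKM. Log2 changes on this scale understate those of low genes. The 28055 transcripts with a mean of at least 0.5 FPKM were tested in the same way. Unequal change between transcripts was tested with diffSplice (Simes p), which pools the spread over the transcripts of a gene. On simulated data it called unchanged genes more often than its threshold allows, so a limma test of each transcript's log2 ratio to the others of its gene was added after seeing the data. That test made fewer false calls, though also more than its threshold allows. GENCODE M21 holds 97.5% of the transcripts. Python 3.11.15 with pandas 2.3.3 was used for tables, and matplotlib 3.10.9 for plots.

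Libraries carry numbers 1 to 3 in both groups, from their titles. Deviations from the group means correlated positively within each number (r = 0.42, 0.28 and 0.28) and negatively across numbers (-0.29 to -0.026). Because the deviations in a group cancel out, the negative values follow in part from the positive ones. The numbers may pair the libraries, as a hint from the data rather than the design. The main test has no block.

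The 8 genes, the pathway list and the marker lists were chosen with earlier results of these data known. Named pathway genes are the 3 with the largest change past the threshold per role, or the most abundant where none passed. Named transcripts have a mean of at least 0.5 FPKM, and the nearest patterns are the 2 closest tested genes, skipping unnamed, small RNA and date-like symbols. For Inhba 1 of these is not reported here. RefSeq windows end at the start site, and the 50 bases after it were left out.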

Additional observations from a re-analysis of the deposited data

How the results depend on the processing

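The rises of Tgfb2, Tgfb3, Inhba, Tgfbi, Skil and Tgif1 passed under every setting run: other added constants, filters and scalings, 1 transcript per gene, and leaving out libraries. Tgfb1 passed with centring (log2 0.39), quantile normalisation (0.34), cyclic loess (0.41), the replicate block (0.27, adjusted p = 0.00739), block and centring (0.39), without vehicle 3 (0.34) and without both libraries numbered 1 (0.20), and ranged from 0.16 to 0.34 without single libraries or numbers. Ltbp1 lost its call with TPM (0.30), its highest transcript (0.13) and coding transcripts only (0.10, added later), and held with libraries left out (0.19 to 0.21). In the pathway list, 6 genes fell with TPM and 6 without both libraries numbered 2, and 25 rose with block and centring. Over all genes, 2131 rose and 2792 fell with centring, 1222 fell with TPM, 3096 with quantile normalisation and 2757 without both libraries numbered 3. Cyclic loess gave 2345 higher and 2051 lower, and block and centring gave 2890 higher. Signs turned for Dcn (-0.19 to 0.20 over libraries left out, 0.011 without both numbered 1 and 0.0034 without both numbered 3; 0.12 with centring, also with the block, 0.093 with TPM, 0.011 with loess), Inhba-201 (-0.011 to 0.30) and Tgif1-205 (-0.054 to 0.31). Ratios to other transcripts turned for Skil-202 (0.25), Skil-205 (0.27) and Tgif1-202 (0.019) with a constant of 0.1, and for Tgif1-202 over libraries left out (-0.49 to 0.0021); none of these passed except Dcn with block and centring (adjusted p = 0.0190). The causes were not tested. Unknown depth leaves the precision of transcripts under about 1 FPKM unstated.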
